A study of Arabidopsis thaliana with 12 samples.

Results

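The 5 genes followed here belong to the camalexin and glucosinolate pathways: *PAD3* (AT3G26830), *CYP71A13* (AT2G30770), *CYP81F2* (AT5G57220), *MYB122* (AT1G74080) and *CYP83A1* (AT4G13770). They were found by locus, each with 1 probe set, and are 5 of 22596 units measured, which comprise 14350 named loci and 8246 probe sets with no locus here; all of these are called loci below. They were chosen with their signals on these arrays known: the first 4 for their signal with Dex+Cyc against Cyc, and *CYP83A1* for its signal with Dex against mock. Their values, and whether they pass the threshold used for all loci, are therefore given as a description with no p-value, and no count of passing members is read as a test.

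The arrays come from shoot apical meristems (SAMs) of *Arabidopsis* plants of about 28 days that carry *35S::WUS-GR* in the *ap1-1;cal1-1* background, whose apices overproliferate as inflorescence meristems; all 4 groups share this genotype. The WUS-GR fusion is driven by a promoter active in most cells, not only where *WUS* is normally transcribed, and dexamethasone (Dex) moves it into the nucleus. The groups were Mock, Dex (10 µM), Cyc (10 µM cycloheximide, which blocks protein synthesis) and Dex+Cyc (10 µM of each), all for 4 h, with 3 arrays a group. RNA was taken from pools of plants, and the labels do not say whether the 3 samples of a group came from separate pools, so the spread between them may be technical; plants without the transgene that received Dex were not analysed here.

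Camalexin is the main indole phytoalexin of *Arabidopsis*, made from tryptophan by way of indole-3-acetaldoxime. The same aldoxime is the branch point to the indole glucosinolates, sulfur-rich glucosides that myrosinases break down upon attack, while the aliphatic glucosinolates are made from chain-elongated methionine. *CYP71A13* converts indole-3-acetaldoxime towards indole-3-acetonitrile and *PAD3* (CYP71B15) closes the camalexin ring. *CYP81F2* hydroxylates indole glucosinolates for the branch that *PEN2* breaks down in pathogen defence, *MYB122* is an R2R3-MYB regulator of the indolic pathway, and *CYP83A1* oxidises the aldoximes of the aliphatic branch.

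The values are the authors' MAS5 signals, linear brightness values of probe sets, every array having the same trimmed mean of 500. The median signal was 214 to 238 over the 12 arrays, and arrays of one group correlated at 0.938 to 0.949 in log2 signal across loci. *CLV3*, a stem cell gene activated by WUS, had 85.9 ± 37.2 in Mock and 912 ± 157 in Dex (SD, n = 3), a log2 fold change of 3.48 (limma, adjusted p = 0.00234), and 2.53 with Dex+Cyc against Cyc (adjusted p = 0.0214). The meristem gene *KNAT1* was at 2860.2 ± 399 in Mock, 836 ± 96.5 in Dex, 1481 ± 171 in Cyc and 503 ± 134 in Dex+Cyc, and it fell with Dex (-1.77, adjusted p = 0.00236). The leaf gene *RCA* (rubisco activase) was at 2754 ± 109.7 in Mock and 1811 to 2766 over the 4 group means, so both meristem and green tissue transcripts were read. Of the 21 marker genes listed, 5 were measured by a probe set with a name, and the probe set of *WUS* was not named here.

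The camalexin enzyme *PAD3* was dim without cycloheximide and highest with Cyc. Its signals were 25.9, 22.3 and 11.9 in Mock and 21.2, 30.5 and 23.7 in Dex. In Cyc they were 351, 360.3 and 349.9, and in Dex+Cyc 113, 64.5 and 60.4. The 3 Cyc arrays lay close together and above all others, the Dex+Cyc arrays lay between Cyc and the arrays without the inhibitor, and Mock and Dex overlapped. The means were 20.0 ± 7.31, 25.1 ± 4.78, 354 ± 5.74 and 79.2 ± 29.1 (SD, n = 3), so that Dex+Cyc held 22.4% of the Cyc mean but 3.96 times the Mock mean.

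*CYP71A13*, which acts before *PAD3* in the same pathway, was likewise highest with Cyc and next with Dex+Cyc, with a wider spread. Mock arrays gave 4.16, 3.62 and 16.5, and Dex arrays 4.43, 14.4 and 3.69. Cyc arrays gave 163, 234 and 121, and Dex+Cyc arrays 90.0, 35.2 and 42.5. Mock and Dex overlapped fully, whereas every Dex+Cyc array was below every Cyc array and above every array without cycloheximide. Dex+Cyc held 32.3% of the Cyc mean of 173 ± 57.3. *CYP71A12*, a close relative of *CYP71A13*, lies 3 protein-coding genes away in the RefSeq annotation; its probe set was not named here, and how much of its RNA the *CYP71A13* probes read was not tested.

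*CYP81F2*, of the indole glucosinolate branch, had the largest difference between the inhibitor and mock among the 5 genes. The Mock signals were 28.9, 5.83 and 1.80 and the Dex signals 10.8, 1.76 and 4.01. The Cyc signals were 3573, 4597 and 4319.8, and the Dex+Cyc signals 1786, 1307 and 966. Mock and Dex overlapped, and the lowest Dex+Cyc array was far above the highest Mock array. Relative to the Cyc mean of 4163 ± 529.9, Dex+Cyc held 32.5% and Mock 0.293%. The ratio of the Cyc and Mock means was 341, whereas the fold change fitted on log2 signals was 617, since the Mock arrays spread widely (SD of 2.01 in log2) at a very low signal; the size of this fold is thus not well set.

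*MYB122*, the transcription factor of the set, was even between replicates. It had 4.0, 4.58 and 5.71 in Mock and 2.53, 3.48 and 2.35 in Dex. With the inhibitor it had 331, 394 and 422 in Cyc and 164, 172 and 170.3 in Dex+Cyc. All 4 groups were apart, in the order Cyc, Dex+Cyc, Mock and Dex, with the SD at 0.04 to 0.30 in log2. Dex+Cyc held 44.2% of the Cyc mean of 382 ± 46.6, and Dex 58.4% of the Mock mean of 4.76 ± 0.869; the latter pair lies at a signal where most probe sets varied strongly between replicates, and with log2(value + 32) the log2 difference between Dex and Mock was -0.08, so no change with Dex is read from it.

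*CYP83A1*, the only member of the aliphatic branch, ran the other way. Its Mock signals were 104, 142 and 95.0, above every other array. The Dex signals were 4.75, 34.2 and 17.4, the Cyc signals 9.15, 3.94 and 8.0, and the Dex+Cyc signals 5.47, 6.87 and 14.9. The 3 treated groups overlapped one another, so their order is not resolved. Dex held 16.5% of the Mock mean of 114 ± 25.1, Cyc 6.17% and Dex+Cyc 7.96%. In these bulk samples, fewer cells with the transcript and less RNA per cell cannot be told apart.

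**Figure D1:**
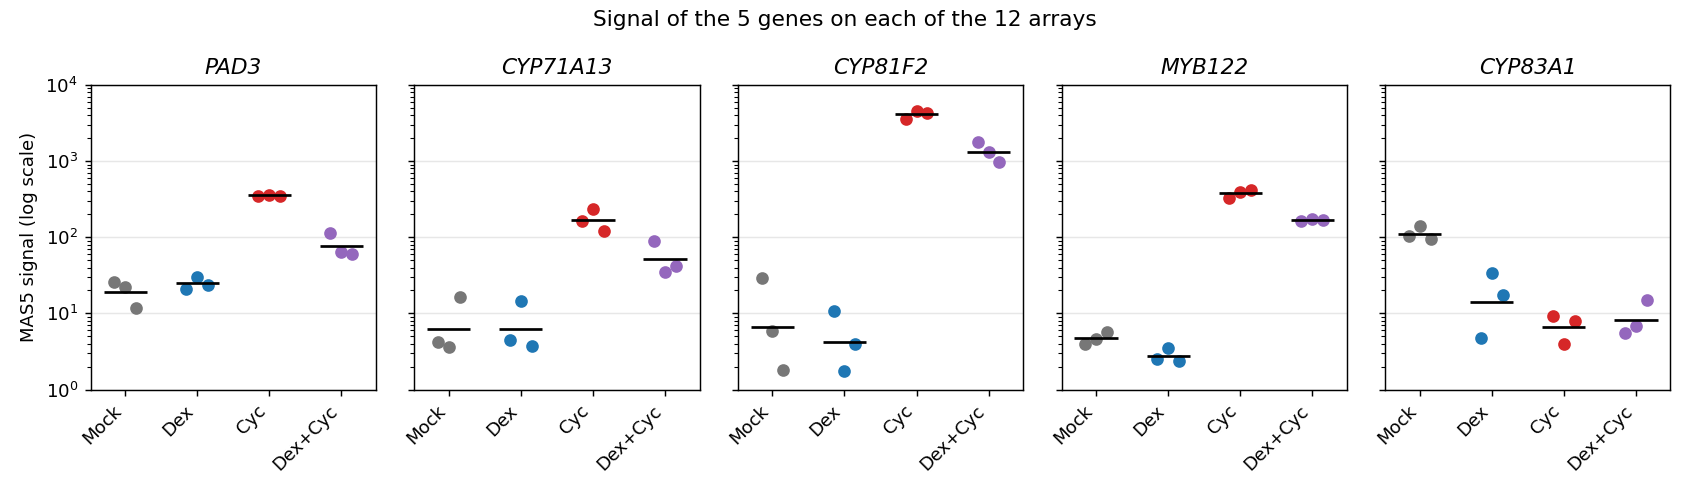
MAS5 signal (log scale) of the 5 genes on each of the 12 arrays, 3 points per treatment group, with the line at the mean of the log2 signals. *PAD3*, *CYP71A13*, *CYP81F2* and *MYB122* are highest with Cyc and intermediate with Dex+Cyc, while *CYP83A1* is highest in Mock (95.0 to 142).

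All 5 genes differed between Cyc and Mock, the comparison that shows the effect of the inhibitor itself. A locus was called at an adjusted p under 0.01 with at least a 2-fold change in one limma fit over all loci. By this rule 4 members were called higher, where 8.3% of all loci were, and *CYP83A1* was called lower, where 7.32% were. The log2 fold changes were 4.22 ± 0.32 (SE) for *PAD3*, 4.73 ± 0.69 for *CYP71A13*, 9.27 ± 0.93 for *CYP81F2*, 6.33 ± 0.18 for *MYB122* and -4.08 ± 0.68 for *CYP83A1*. The dim Mock signals set the size of some of these: *CYP81F2* had 10.32 without Mock replicate 1 and 8.32 without Mock replicate 3, and *CYP71A13* had 5.42 without Mock replicate 3. The median of all loci was -0.185 in this comparison, so a change relative to it is larger by that amount for the 4 higher genes and smaller for *CYP83A1*. The arrays did not overlap for any member, as for 18.2% of all loci in the higher and 31.9% in the lower direction. The 4 higher members were chosen with the Cyc arrays, and *CYP83A1* with the Mock arrays, of this comparison. Nothing is therefore read from these counts.

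Of the 5 marker genes measured, *WRKY53* was called with the inhibitor. *WRKY53*, an early defence regulator, rose from 101 ± 28.6 in Mock to 11349.5 ± 2235 in Cyc (log2 fold change 6.83, adjusted p = 1.66e-07), while the defensin *PDF1.2* had 65.4 ± 8.96 and 46.0 ± 18.5 (adjusted p = 0.206). *RCA* had a log2 fold change of -0.61 (adjusted p = 0.00228), *KNAT1* -0.95 (adjusted p = 0.00525) and *CLV3* 0.21 (adjusted p = 0.728). *KNAT1*, like *CYP83A1*, was lower in all 3 treated groups than in Mock. The part of tissue composition in the members' values was not tested.

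With protein synthesis blocked, activation of WUS-GR was read by comparing Dex+Cyc with Cyc, the comparison meant to show effects that need no newly made protein. The camalexin and indolic members were lower: *PAD3* by -2.22 ± 0.32, *CYP71A13* by -1.70 ± 0.69, *CYP81F2* by -1.66 ± 0.93 and *MYB122* by -1.17 ± 0.18 on the log2 scale. Their arrays did not overlap (9.64% of all loci were apart in this direction) and each was at least 2-fold lower (6.35% of all loci). These 4 were chosen for this comparison, so nothing is read from the counts. *CYP83A1* had 0.32 ± 0.68 with overlapping arrays. None of the 5 was called, where 0.0929% of all loci were called lower and 0.0133% higher. In all, 3108 loci had an unadjusted p under 0.05. The missing calls hold only for the main fit on log2 MAS5 signals. The study's own test, on GCRMA-normalized values, placed all 5 in its lists of genes changed with Dex or Dex+Cyc. The paper names *PAD3* among the genes that WUS represses. With log2(value + 32), which gives dim signals less weight, *PAD3*, *CYP81F2* and *MYB122* were called, and with a variance trend *PAD3* was. Those settings called 137 and 172 of all loci, against 24 in the main fit. Nothing is read from these calls of genes chosen for this comparison.

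Without the inhibitor, the effect of WUS-GR was read from Dex against Mock, and *CYP83A1* had the lowest value of the 5. *CYP83A1* had a log2 fold change of -2.98 ± 0.68 (-2.20 without Dex replicate 1 and -3.62 without Dex replicate 2) and *MYB122* -0.78 ± 0.18 at its low signal, both with arrays apart, as for 12.9% of all loci in this direction. The other 3 overlapped, with 0.39 ± 0.32 for *PAD3*, -0.03 ± 0.69 for *CYP71A13* and -0.66 ± 0.93 for *CYP81F2*. None was called, where 0.73% of all loci were called lower and 0.451% higher; 4363 loci had an unadjusted p under 0.05. *CYP83A1*, chosen for this comparison, was called with log2(value + 32), where 342 of all loci were called, against 267 in the main fit. Leaving out 1 array moved *CYP71A13* between -0.64 and 0.67 and *CYP81F2* between -1.61 and 0.39, so that neither has a settled sign without the inhibitor.

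The difference between both Dex effects (Dex+Cyc against Cyc minus Dex against Mock) was -2.61 ± 0.45 for *PAD3*, -1.67 ± 0.98 for *CYP71A13*, -1.0 ± 1.31 for *CYP81F2*, -0.39 ± 0.26 for *MYB122* and 3.30 ± 0.96 for *CYP83A1*. None of these was called, where 0.00443% of all loci were called in each direction and 1864 loci had an unadjusted p under 0.05. Both effects start from unlike levels: the Mock and Cyc means were 20.0 and 354 for *PAD3*, 12.2 and 4163 for *CYP81F2*, and 114 and 7.03 for *CYP83A1*. These comparisons share arrays: Cyc against Mock uses the Cyc arrays of Dex+Cyc against Cyc and the Mock arrays of Dex against Mock.

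**Figure D2:**
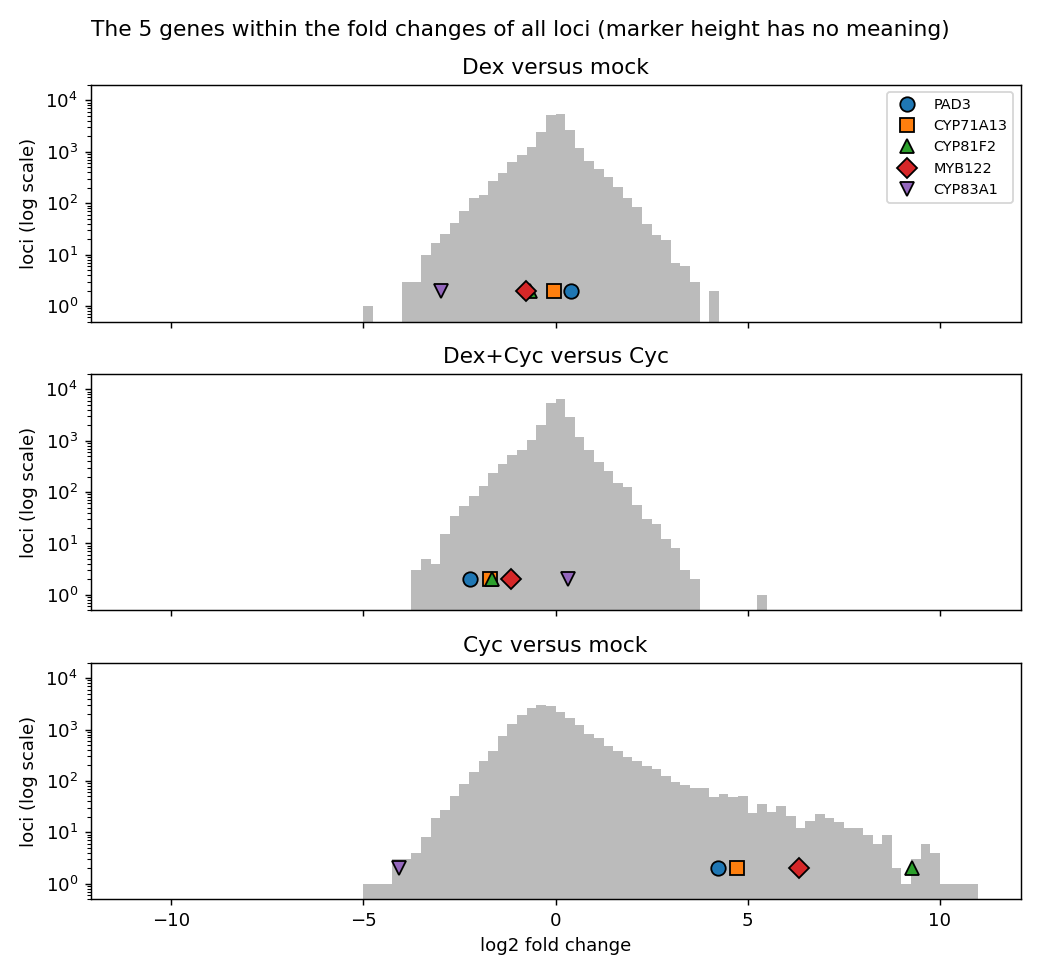
Number of loci (log scale) by log2 fold change in 3 comparisons over all 22596 loci, with the 5 genes as markers whose height has no meaning. *CYP81F2* (9.27) and *CYP83A1* (-4.08) lie near the ends for Cyc versus mock, and *CYP83A1* (-2.98) lies to the left for Dex versus mock.

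Of 81 other genes of the pathways, listed by role, 20 were measured by a probe set with a name. Of the 20, 6 (*GGP1*, *IGMT1*, *OBP2*, *PEN2*, *ASA1* and *TSA1*) have a name here only because they stand in the study's lists of genes that changed on these samples, so their directions are not independent evidence. Cyc against Mock called 5 of the 20 higher and 1 lower, Dex against Mock called 0 higher and 3 lower, and Dex+Cyc against Cyc called 0 higher and 1 lower. Over all loci the shares were 8.3% and 7.32%, 0.451% and 0.73%, and 0.0133% and 0.0929% in the same order. The medians over the 20 genes were 0.74, -0.37 and -0.43, beside -0.185, -0.006 and 0.030 over all loci. Among the 14 genes named otherwise, the calls were 2 higher and 1 lower, then 0 and 1, then 0 and 0, and the medians 0.13, -0.19 and -0.12. No pathway gene was called for the difference between the Dex effects.

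In the camalexin and indolic branches 4 genes beside the members were measured, and of them *FOX1* and *IGMT1* were called, both with Cyc, and *GGP1* with Dex. *GGP1*, a peptidase that trims glutathione conjugates in both pathways, had 1899.8 ± 156 in Mock, 773 ± 39.4 in Dex, 3614 ± 480.4 in Cyc and 2033 ± 236 in Dex+Cyc; it fell with Dex against Mock (-1.30, adjusted p = 0.00161) and missed the call with Dex+Cyc against Cyc (-0.83, adjusted p = 0.0209). *FOX1*, an oxidase of a further indolic defence branch, gave 42.8, 38.0 and 33.7 in Mock, 49.3, 34.8 and 3.44 in Dex, 2801, 4424 and 3979 in Cyc, and 2199.7, 1936 and 1224 in Dex+Cyc. It rose with Cyc (6.59, adjusted p = 0.000196), and its Dex+Cyc arrays all lay below the Cyc arrays, though this difference was not called (-1.08, adjusted p = 0.645).

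*IGMT1*, the methyltransferase that acts on the product of *CYP81F2*, gave 2.72, 4.58 and 2.36 in Mock, 1.39, 2.54 and 0.831 in Dex, 453, 863 and 706 in Cyc, and 346, 267 and 198 in Dex+Cyc. *PEN2*, the myrosinase that breaks down the methylated product, gave 443, 609.6 and 677 in Mock, 260.3, 245 and 272 in Dex, 10133, 14661 and 12103 in Cyc, and 9211, 9125 and 7937 in Dex+Cyc. *CYP81F2*, *IGMT1* and *PEN2*, which act one after another, had the same order of group means, Cyc above Dex+Cyc above Mock above Dex, with Mock and Dex arrays overlapping for the former pair. This order is not particular to them: among others, *MYB122*, *CYP71A13*, *FOX1*, *GGP1*, *ASA1*, *IGPS*, *GTR2*, *ATPS3* and *WRKY53* had it too. The share of all loci with this order was not counted. *IGMT1* and *PEN2* rose with Cyc (7.72 and 4.42, adjusted p = 1.11e-06 and 2.04e-07), and *PEN2* fell with Dex against Mock (-1.13, adjusted p = 0.00837). With Dex+Cyc against Cyc *IGMT1* had -1.31 (adjusted p = 0.207) and *PEN2* -0.48 (adjusted p = 0.278). *UGT74B1*, the glucosyltransferase of the core pathway, was not called in any comparison, with -0.70, -0.92 and 0.67 in Dex against Mock, Dex+Cyc against Cyc and Cyc against Mock.

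In the aliphatic branch, 5 of 24 listed genes were measured. *GSTU20*, a glutathione transferase of this branch, gave 917, 577 and 902 in Mock, 222, 306 and 162 in Dex, 123, 135 and 123 in Cyc, and 73.7, 45.9 and 86.4 in Dex+Cyc. Like *CYP83A1* it was highest in Mock, and it fell both with Dex (-1.81 ± 0.30, adjusted p = 0.00963) and with Cyc (-2.62 ± 0.30, adjusted p = 0.000109); unlike it, all 4 groups were apart. The remaining 4 were not called in any comparison. Of these, *BCAT4* starts the chain elongation of methionine. It had 0.93 in Dex against Mock, 1.08 in Dex+Cyc against Cyc and 0.80 in Cyc against Mock. Its standard error was 1.05 in each, with overlapping arrays, so no direction is read from it. *UGT74C1* was nearest to a call with -1.26 for Cyc against Mock (limma, adjusted p = 0.0149). *AOP3* and *GSL-OH*, which modify side chains, had standard errors of 0.95 to 1.12.

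The genes that supply substrates split. *ASA1*, which makes anthranilate for tryptophan, gave 929, 926 and 928 in Mock, 602, 578 and 642 in Dex, 3635, 3044 and 3569 in Cyc, and 1833, 1739 and 1529 in Dex+Cyc. It rose with Cyc (1.88, adjusted p = 1.21e-06) and fell with Dex+Cyc against Cyc (-1.01, adjusted p = 0.00716), the only pathway call there. *IGPS* and *TSA1*, later steps to tryptophan, had -0.52 and -1.02 in that comparison (adjusted p = 0.111 and 0.0606), with all arrays apart. *ATPS3*, an ATP sulfurylase that activates sulfate, rose with Cyc (223 ± 71.4 to 5126 ± 395, adjusted p = 5.95e-07), and its Dex+Cyc arrays (mean 4844 ± 258) overlapped those of Cyc (-0.08, adjusted p = 0.931).

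The measured regulators and transporters stayed within smaller ranges. *MYC3* and *MYC4*, partners of the glucosinolate MYB factors, had log2 fold changes between -0.26 and 0.51 in the 3 comparisons, and *OBP2*, a DOF factor that acts on indole glucosinolates, had -0.92 with Dex against Mock (adjusted p = 0.0803). The transporter *GTR1* had -0.66 with Dex against Mock (adjusted p = 0.0515), *GTR2* 0.52 with Cyc against Mock (adjusted p = 0.0565), and the myrosinase *PYK10* 0.74 with Dex against Mock (adjusted p = 0.302). None of these 6 was called in any comparison.

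Fewer pathway calls with Dex were kept when any 1 array was left out, also an array outside the comparison. Of the 3 calls with Dex against Mock, 0 remained without Dex replicate 3, 1 remained without any one of Mock replicates 2 and 3, Dex replicates 1 and 2, Cyc replicates 2 and 3 or Dex+Cyc replicates 1 and 3, and 2 remained without any one of the others. The call of *ASA1* with Dex+Cyc against Cyc was lost without any one of the 12 arrays. Its Dex+Cyc arrays (1529 to 1833) nonetheless all lay below its Cyc arrays (3044 to 3635). Calls over all loci fell as well, from 267 to between 44 and 227 for Dex against Mock. For Dex+Cyc against Cyc they fell from 24 to between 0 and 10.

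**Figure D3:**
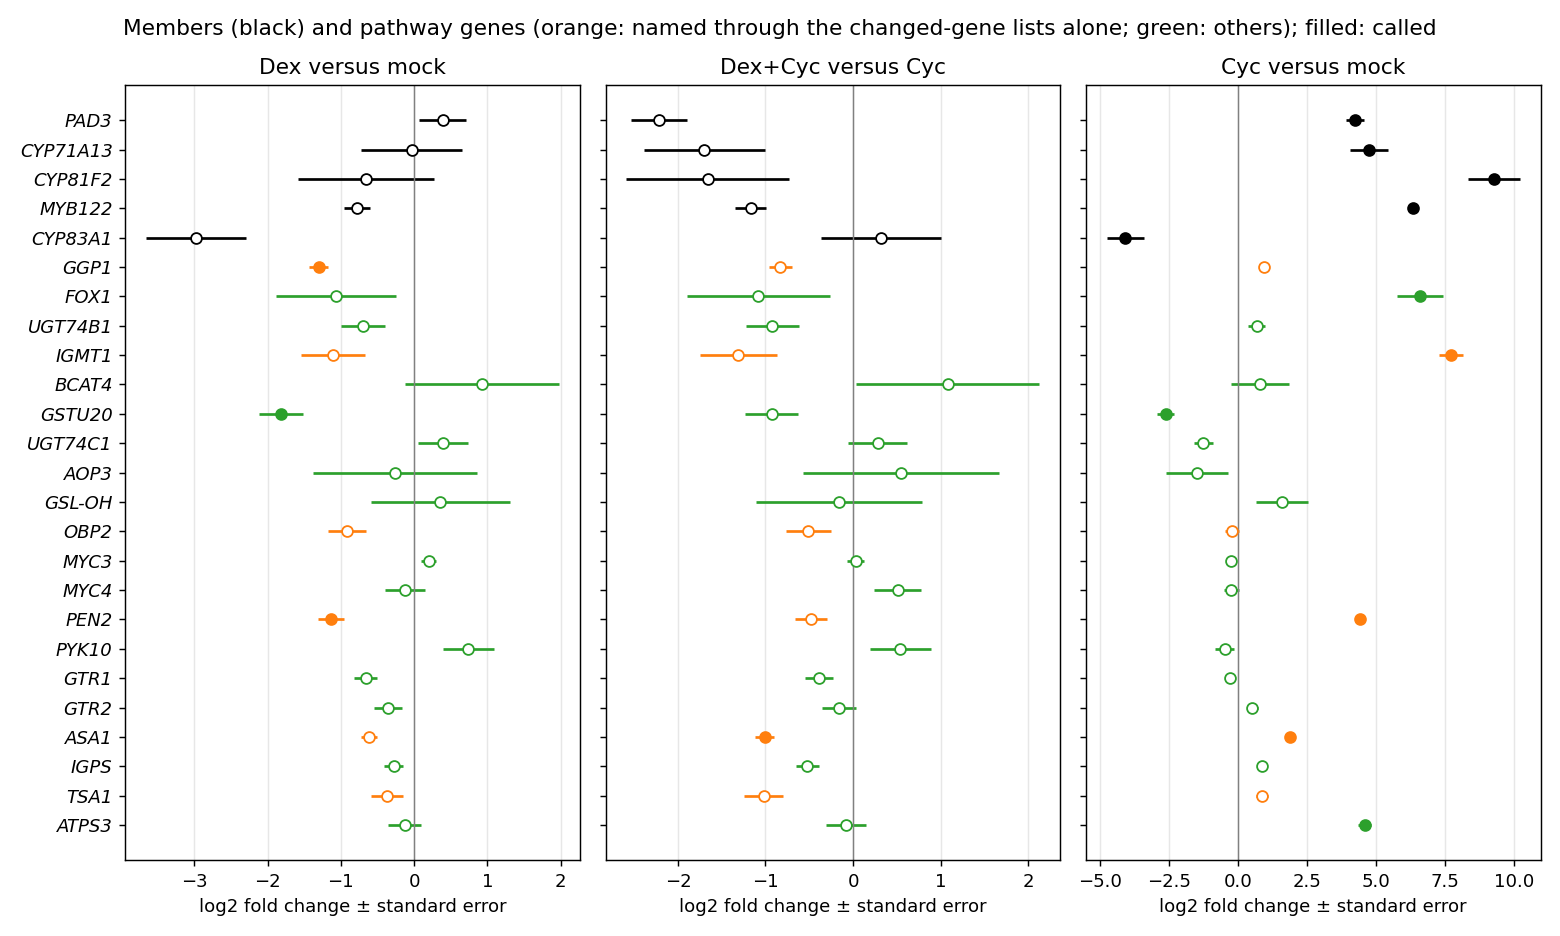
Log2 fold changes with standard errors of the 5 members (black) and the 20 pathway genes in 3 comparisons, with orange for genes named through the lists of changed genes alone, green for the others and filled points for calls. Calls are most frequent for Cyc versus mock, where all 5 members and 6 pathway genes are filled.

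Cytochrome P450 enzymes form a large family, and 36 further members with a symbol, none named through the lists of changed genes alone, were measured; they were looked at after the other values were seen. Cyc against Mock called 6 of them higher and 4 lower, Dex against Mock 0 and 1, and Dex+Cyc against Cyc 0 and 0, beside 8.3% and 7.32%, 0.451% and 0.73%, and 0.0133% and 0.0929% of all loci. Their log2 fold changes ran from -3.10 to 3.32 for Cyc against Mock, from -1.68 to 2.11 for Dex against Mock and from -1.87 to 1.87 for Dex+Cyc against Cyc. *PAD3*, *CYP71A13* and *CYP81F2* were above the first range and *CYP83A1* below it, *CYP83A1* was below the second and *PAD3* below the third. As the members were chosen for such values this is a description. P450 genes named through the lists of changed genes alone, as the 4 P450 members are, were left out of the 36. The ranges may be narrower for that reason.

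Some P450 genes of the subfamily of *PAD3* were, like it, highest with Cyc and lower with Dex+Cyc. *CYP71B22* had 481 ± 80.4 in Mock, 169 ± 19.5 in Dex, 2900.4 ± 346 in Cyc and 918 ± 260.4 in Dex+Cyc (SD, n = 3). It fell with Dex against Mock (-1.51, adjusted p = 0.00627), rose with Cyc (2.60, adjusted p = 1.82e-05) and had -1.70 with Dex+Cyc against Cyc (adjusted p = 0.0121). *CYP71B23* had 309 ± 55.9, 190.4 ± 35.1, 1797 ± 145 and 712 ± 77.7 in the same order of groups, rose with Cyc (2.55, adjusted p = 5.02e-06) and had -1.34 with Dex+Cyc against Cyc (adjusted p = 0.0124). *CYP71B6* and *CYP71B5* also rose with Cyc (2.26 and 1.34, adjusted p = 9.51e-06 and 0.000131). With Dex+Cyc against Cyc they had -0.66 and -0.41 (adjusted p = 0.113 and 0.286). Not all relatives did so: *CYP71B35* fell with Cyc (-1.89, adjusted p = 3.96e-05) and had 1.12 with Dex+Cyc against Cyc (adjusted p = 0.0234). *CYP71B26* fell too (-1.25, adjusted p = 0.00319) and had 0.77 with Dex+Cyc against Cyc (adjusted p = 0.196). The other *CYP71B* genes among the 36 were not called in any comparison. Their log2 fold changes ran from -3.1 (*CYP71B37*) to 3.32 (*CYP71B21*) for Cyc against Mock. Of 10 other MYB genes with a symbol, Cyc called *MYB73* higher (1.99, adjusted p = 0.000809) and *MYB12*, a flavonol regulator, lower (-1.34, adjusted p = 0.00112), and neither Dex comparison called any.

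**Figure D4:**
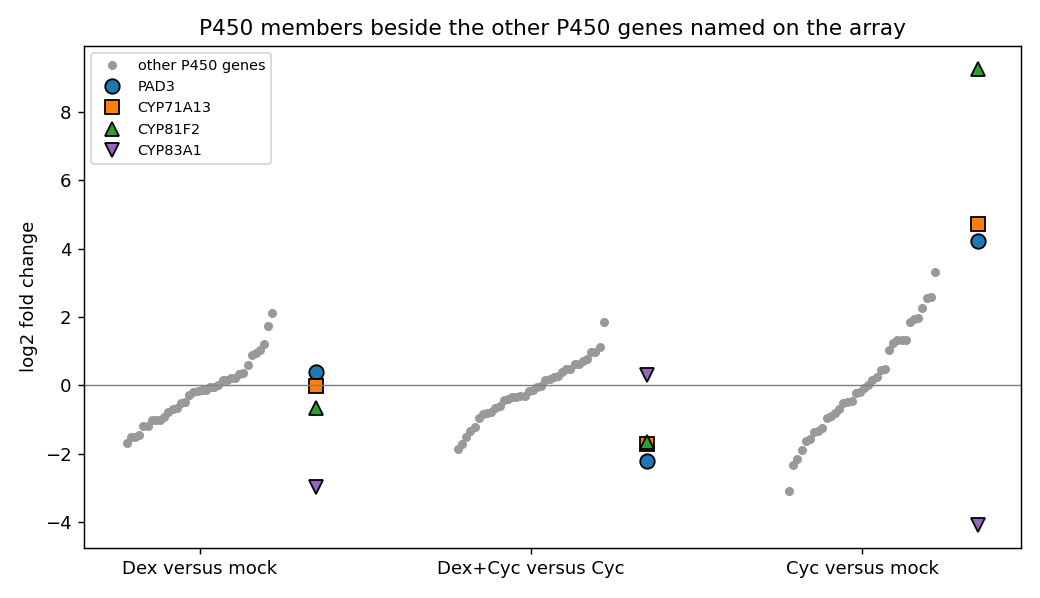
Log2 fold changes of the 4 P450 members (large markers) and 36 other P450 genes (grey points, sorted) in 3 comparisons. Other P450 genes named through the lists of changed genes alone are left out. The grey points end at 3.32 for Cyc versus mock, below *PAD3* (4.22), *CYP71A13* (4.73) and *CYP81F2* (9.27), and start at -3.10, above *CYP83A1* (-4.08).

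The profiles most like those of the members were sought among 1734 loci with a symbol outside the dimmest 40% of probe sets, by Pearson's r of log2 signals over the 12 arrays. For all members but *CYP83A1* the arrays fall into those with and without cycloheximide, so r mostly reflects that split. For *CYP83A1*, r mostly reflects Mock against the treated groups. In both cases r is given as a measure of likeness only. Among the loci most like *PAD3* were *RLP12* (0.964), a receptor-like protein, and *CRK28* (0.960), a cysteine-rich receptor-like kinase. Like *PAD3*, both had lower means with Dex+Cyc than with Cyc (127 ± 43.0 against 443 ± 73.9 for *RLP12*) and log2 fold changes of only -0.44 and -0.01 for Dex against Mock (116 ± 20.4 and 116 ± 11.7 for *CRK28*). *CYP71A13* was most like *PRA1.G2* (0.958), *CBL1* (0.956), a calcium sensor, and *LCR67* (0.948), a defensin-like peptide.

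*CYP81F2* was most like *PLA2A* (0.994), a lipase induced in defence, *GA2OX6* (0.990), which inactivates gibberellin, and *MLO12* (0.982), one of the MLO proteins needed by powdery mildew. *PLA2A* had 22.7 ± 19.6 in Mock, 2866 ± 203 in Cyc and 809 ± 195 in Dex+Cyc. *MYB122* was most like *IGMT1* (0.994), *ATSIK* (0.994), a protein kinase, and *PEN2* (0.993), so that a pair of genes from the branch of *CYP81F2* stood among its nearest 3. *CYP83A1* had the weakest likenesses, to *BGLU40* (0.939), a beta-glucosidase, *TPS1* (0.890), which makes trehalose 6-phosphate, and *UGT71B1* (0.878). *TPS1* had 574 ± 37.2 in Mock and 182 ± 19.8 to 243 ± 34.3 in the other groups. Several of these genes (*RLP12*, *CRK28*, *GA2OX6*, *MLO12*, *TPS1*, *IGMT1* and *PEN2*) also have names here only through the lists of changed genes.

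In the RefSeq annotation *MYB122* lies 2 and 3 protein-coding genes from *SOT18* and *SOT16*, sulfotransferases of the last step of glucosinolate synthesis. Neither has a probe set named here, so the levels of these neighbours were not analysed.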

How the data were processed

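RNA of the 12 samples was hybridised to Affymetrix ATH1 arrays. The authors deposited MAS5 signals, a linear intensity scaled on each array to a mean of 500 after leaving out 2% of the values at each end (checked on the values). MAS5 and affy are named in the submitters' processing notes, with no version given in the sources used here. Neither detection calls nor the GCRMA values of the study's own test entered. MAS5 signals of dim probe sets vary strongly, so folds from such levels are uncertain.

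The arrays hold 22810 probe sets, 64 of them controls, which were dropped. The platform annotation gave 13513 probe sets 1 symbol and 503 several; with the study's supplementary tables, 14500 had a locus, 421 of them only through its lists of changed genes, all 5 members included. The probe set with the highest mean was kept for a locus. Signals were taken as log2 and fitted with limma 3.58.1 in R 4.3.3 (lmFit, eBayes with 1.34 prior degrees of freedom) as 4 group means over all 12 arrays; p-values were adjusted by Benjamini-Hochberg over 22596 loci, of which 8246 are probe sets without a locus and 14350 are named. The number of arrays limits the precision. Tables and plots were made in Python 3.11.15 with pandas 2.3.3.

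The members, the lists of pathway genes and markers and the tests were chosen with earlier results of these data known. Genes named are the members, all pathway genes and markers that were measured, and the 3 loci most like each member (1 of them is not reported here), with *CLV3* as the check of the labels; P450 and MYB relatives were added after values were seen. Each array was left out in turn, and the fit was repeated with quantile normalization, with median centring, with 32 added before log2, after dropping the dimmest 40% of probe sets, with replicate number as a block, on 6 arrays for each comparison, with a variance trend and at an adjusted p under 0.05. The fit was tested on simulated data: of 100 loci changed by 4-fold among 22596, it called 53% in Dex versus mock, 59% in Dex+Cyc versus Cyc, 45% in Cyc versus mock and 39% for the difference; of those changed by 2-fold it called 18%, 14%, 13% and 8%. Only these loci were changed in each simulated comparison, whereas Cyc versus mock had 3530 called in the data. The simulated shares need not hold there. No genome or promoter sequence was used here, so motifs were not searched.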

Additional observations from a re-analysis of the deposited data

How the results depend on the processing

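All 5 members were called for Cyc against Mock under each alternative that measured them. At the main threshold, these called from 2812 (6 arrays) to 3678 (variance trend) of all loci. The choice of the members used the Cyc or the Mock arrays of this comparison, so nothing is read from these calls. Without the dimmest 40% of probe sets only *CYP81F2* and *MYB122* were measured. *MYB122* was then also called for Dex+Cyc against Cyc, where 160 loci were. The values of the members moved beyond the spread between replicates mainly with log2(value + 32). For Cyc against Mock it gave 2.90 for *PAD3*, 2.33 for *CYP71A13*, 6.61 for *CYP81F2*, 3.49 for *MYB122* and -1.89 for *CYP83A1*. For Dex against Mock it gave -0.08 for *MYB122* and -1.55 for *CYP83A1*, for Dex+Cyc against Cyc -1.83 for *PAD3* and -1.04 for *MYB122*, and for the difference between the Dex effects -1.97 for *PAD3*, -0.96 for *MYB122* and 1.62 for *CYP83A1*. Quantile normalization gave -1.30 for *MYB122* with Dex+Cyc against Cyc.

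Replicate numbers are shared between groups. Deviations of same-numbered arrays correlated at -0.077 to 0.285 (median 0.035), with 3 of 18 pairs over 0.1. Arrays with unlike numbers had -0.259 to 0.16 (median -0.0275), with 3 of 36 pairs over 0.1. Between Cyc and Dex+Cyc the value was 0.285 for replicate 1, 0.24 for replicate 2 and 0.028 for replicate 3. Crossing replicates 1 and 2 of these groups gave -0.259 and -0.247. These values do not settle whether the numbers pair the samples, and the main fit took no pairing. With the replicate block, 1 pathway gene and 98 loci were called for Dex against Mock, 0 and 0 for Dex+Cyc against Cyc, and 0 loci for the difference; the members' fold changes are fixed under it by the balanced design.

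For pathway genes (3 called for Dex against Mock, 1 for Dex+Cyc against Cyc and 6 for Cyc against Mock), the 6 arrays of a comparison alone gave 0 and 0 for the Dex comparisons. For Dex+Cyc against Cyc, quantile normalization gave 0, log2(value + 32) gave 0, the variance trend gave 2 and an adjusted p under 0.05 gave 2; the latter gave 10 for Cyc against Mock. Leaving out each array in turn gave 0 to 2 for Dex against Mock and 0 to 0 for Dex+Cyc against Cyc.

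Over all loci, Dex against Mock (267 called) gave 423 without the dimmest 40%, 461 with the variance trend, 0 with 6 arrays, 1193 at an adjusted p under 0.05 and 44 to 227 with an array left out. Dex+Cyc against Cyc (24 called) gave 137 with log2(value + 32), 160 without the dimmest 40%, 172 with the trend, 0 with 6 arrays, 358 at the looser threshold and 0 to 10 with an array left out. The difference (2 called) gave 0, 5, 13 and 6 with log2(value + 32), without the dimmest 40%, with the trend and at the looser threshold, and 0 to 3 with an array left out. Cyc against Mock (3530 called) gave 9267 at the looser threshold.

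The causes of these shifts were not tested. Low signal is one limit: the median SD between replicates was 1.25 in log2 in the dimmest of 5 brightness groups of loci and 0.15 in the brightest.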
